A study of Homo sapiens with 6 samples.

Results

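REG4, SPINK4, RETNLB, HEPACAM2, FCGBP, CLCA1, ZG16, AGR2, AGR3 and ITLN1 are genes taken here as markers of the goblet cell of the intestine. Their products are secreted peptides and lectins, proteins of the mucus layer, disulfide isomerases of the endoplasmic reticulum, and a membrane protein of secretory cells. These 10 genes were taken by name from 18417 genes with a probe set that the platform annotation gives to 1 symbol. Where a gene had more than 1 such probe set, the one with the highest mean over all 6 arrays was kept. The genes were chosen by function and selected on the measured differences between the groups in these same arrays, so their differences and adjusted p values describe the comparison and are not independent evidence of it. The arrays measured RNA of HT29 cells, an established line from a human colorectal adenocarcinoma. Of the 6 arrays, 3 came from HT29 cells with a control construct and 3 from HT29 cells with an expression construct for the α1 chain of laminin, a protein of basement membranes. Both groups were grown for 7 days, and per the design text each array of a group is a culture passage of its own. Neither the promoter of the construct nor how many cell clones were used is given in the sources used here, so the spread between arrays is a spread between passages. The p values and intervals below rest on that spread. An effect of laminin α1 cannot be told apart from another difference between the cell populations that carry the constructs. The title of the series asks for the impact of this chain on the cultured cancer cells.

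Goblet cells fill the gut lumen with mucus, a gel of the mucin MUC2 to which other secreted proteins bind. AGR2 and AGR3 belong to the protein disulfide isomerases of the endoplasmic reticulum, where MUC2 is folded. FCGBP and CLCA1 are released with MUC2 and are abundant in the mucus gel, in which CLCA1 acts as a protease. ZG16 and ITLN1 are lectins that bind sugars of bacteria, RETNLB is a resistin-like peptide that acts on bacteria, REG4 is a C-type lectin of goblet and enteroendocrine cells, and SPINK4 is a Kazal-type protease inhibitor. HEPACAM2 is a membrane protein of the immunoglobulin superfamily found in secretory cells of the intestine. The lineage depends on the transcription factor ATOH1, which binds the E box, a short DNA motif.

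The promoters of 5 of the genes that were lower in the laminin α1 arrays, and of AGR3, the neighbour of AGR2, are shown so that the sequences before the starts of these genes can be set beside their values. Of the 10 genes, 9 had a promoter in the RefSeq table for GRCh38.p14, with 10 start sites in all, since HEPACAM2 had 2. Each sequence is the 250 bases before the start site, 5′ to 3′ on the strand of the gene. Capitals mark matches on either strand to the E box forms CAGCTG and CAGATG, the forkhead motif TGTTTAC, the caudal homeobox motif TTTATNG and the TATA box TATAAA. For HEPACAM2 the start site that lies further upstream is shown.
HEPACAM2 (chr7:93232199-93232448, minus strand): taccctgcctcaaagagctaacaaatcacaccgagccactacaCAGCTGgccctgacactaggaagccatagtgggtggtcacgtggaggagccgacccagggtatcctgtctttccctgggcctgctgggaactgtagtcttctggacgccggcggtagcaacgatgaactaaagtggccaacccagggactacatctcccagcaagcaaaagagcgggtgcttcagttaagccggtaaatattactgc
REG4 (chr1:119811461-119811710, minus strand): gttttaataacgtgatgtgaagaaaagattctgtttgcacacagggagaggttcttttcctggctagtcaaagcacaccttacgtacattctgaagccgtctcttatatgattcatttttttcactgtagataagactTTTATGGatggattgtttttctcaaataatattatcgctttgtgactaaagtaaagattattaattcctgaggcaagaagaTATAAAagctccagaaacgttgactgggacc
RETNLB (chr3:108757411-108757660, minus strand): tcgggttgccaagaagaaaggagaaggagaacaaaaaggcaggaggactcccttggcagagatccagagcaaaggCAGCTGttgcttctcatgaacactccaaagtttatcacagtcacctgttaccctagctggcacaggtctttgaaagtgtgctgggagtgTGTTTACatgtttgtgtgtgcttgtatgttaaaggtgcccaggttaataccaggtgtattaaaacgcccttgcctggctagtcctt
SPINK4 (chr9:33239917-33240166, plus strand): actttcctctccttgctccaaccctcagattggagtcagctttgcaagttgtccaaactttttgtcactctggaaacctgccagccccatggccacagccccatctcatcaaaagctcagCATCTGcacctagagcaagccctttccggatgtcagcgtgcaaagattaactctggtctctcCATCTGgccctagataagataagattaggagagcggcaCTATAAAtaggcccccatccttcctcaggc
AGR2 (chr7:16805000-16805249, minus strand): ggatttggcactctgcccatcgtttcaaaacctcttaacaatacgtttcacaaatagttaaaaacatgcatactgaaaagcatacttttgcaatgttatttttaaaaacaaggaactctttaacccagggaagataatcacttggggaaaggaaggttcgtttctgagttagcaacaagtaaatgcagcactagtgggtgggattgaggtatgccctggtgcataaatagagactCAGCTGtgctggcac
AGR3 (chr7:16881984-16882233, minus strand): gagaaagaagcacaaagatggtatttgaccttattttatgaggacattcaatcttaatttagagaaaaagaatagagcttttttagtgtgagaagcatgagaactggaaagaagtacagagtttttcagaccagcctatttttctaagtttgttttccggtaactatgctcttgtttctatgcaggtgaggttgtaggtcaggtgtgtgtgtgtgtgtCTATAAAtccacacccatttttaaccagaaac

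CAGCTG stood in 4 of the 10 promoters, those of HEPACAM2, RETNLB, AGR2 and CLCA1, and in 14.0% of 34788 promoters of the same length. CAGATG stood in SPINK4 and in CLCA1, with 2 matches in each, against 12.2% of all promoters. The forkhead motif stood in RETNLB alone of these 10, against 2.98% of all. TATAAA stood in REG4, SPINK4, AGR3 and ITLN1, against 10.8%. TTTATNG stood in the same 4 promoters, against 8.95%, and its matches in SPINK4 and AGR3 overlap the TATA box there. G and C made up 35.6% of the bases in REG4, 50.8% in SPINK4, 36.4% in AGR3 and 49.2% in ITLN1. The median over all promoters was 58.0%, and shares in promoters of like base content were not measured. The promoter of FCGBP and the second one of HEPACAM2 held none of the 5 motifs. A match of these letters is a description of the sequence and not a binding site.

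LAMA1, the gene of the laminin α1 chain, had log2 values of 5.71, 5.63 and 5.60 with the control construct and 5.79, 5.72 and 5.71 with the laminin α1 construct. Its difference of 0.09 (95% interval -0.05 to 0.24, n = 3 per group) was not past the threshold of the limma fit (adjusted p = 0.535). Whether its probes match the construct is not given in these sources. LAMA1 therefore does not check the labels, and each group is named here by its label. All 8 markers of intestinal epithelium (KRT8, KRT18, KRT20, EPCAM, VIL1, CDX1, CDX2 and CDH17) passed the level filter (a mean above log2 5.50). Of these, CDH17 fell 3.14-fold (limma adjusted p = 1.59e-06), KRT20 fell 1.28-fold (adjusted p = 0.00863) and 6 did not pass the threshold. Over all genes tested, 5.29% were called in either direction. KRT20 missed the threshold with control replicate 2 left out (adjusted p = 0.0628) or laminin α1 replicate 2 left out (0.0599). The laminin α1 mean of CDH17 was 4.93, below the filter level, so the size of its fall is uncertain. The mean log2 level of the list ran from 9.84 to 9.93 in the control arrays and from 9.62 to 9.63 in the laminin α1 arrays. Most of this gap came from CDH17, which differed by -1.65. The 6 markers that did not pass differed by -0.12 to 0.07. Of 6 leukocyte and endothelial markers, PTPRC, CD3E, PECAM1 and VWF were below the filter while CD68 and CDH5 passed it, and of 7 fibroblast markers 4 passed it. None of these 6 tested markers was called.

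Of the 10 goblet cell genes, 6 fell in the laminin α1 arrays, 1 was tested and did not pass the threshold, and 3 lay below the level filter. The filter kept genes whose mean over the 6 arrays was above log2 5.50, the 25th percentile, which left 13812 genes, and a gene passed at an adjusted p under 0.05. HEPACAM2 was 10.6-fold lower, REG4 5.72-fold, RETNLB 2.82-fold, SPINK4 2.81-fold, AGR2 2.23-fold and FCGBP 1.90-fold. None of the 7 tested genes rose. Over all genes tested, 5.29% were called in either direction and 2.59% lower, and nothing is read from the count of 6 beside that share, since the genes were chosen with this comparison in view. The median difference of the 7 tested genes was -1.49 and that of all genes tested -0.01. In RNA from a whole culture, fewer goblet-like cells and less RNA per cell cannot be told apart.

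**Figure D1:**
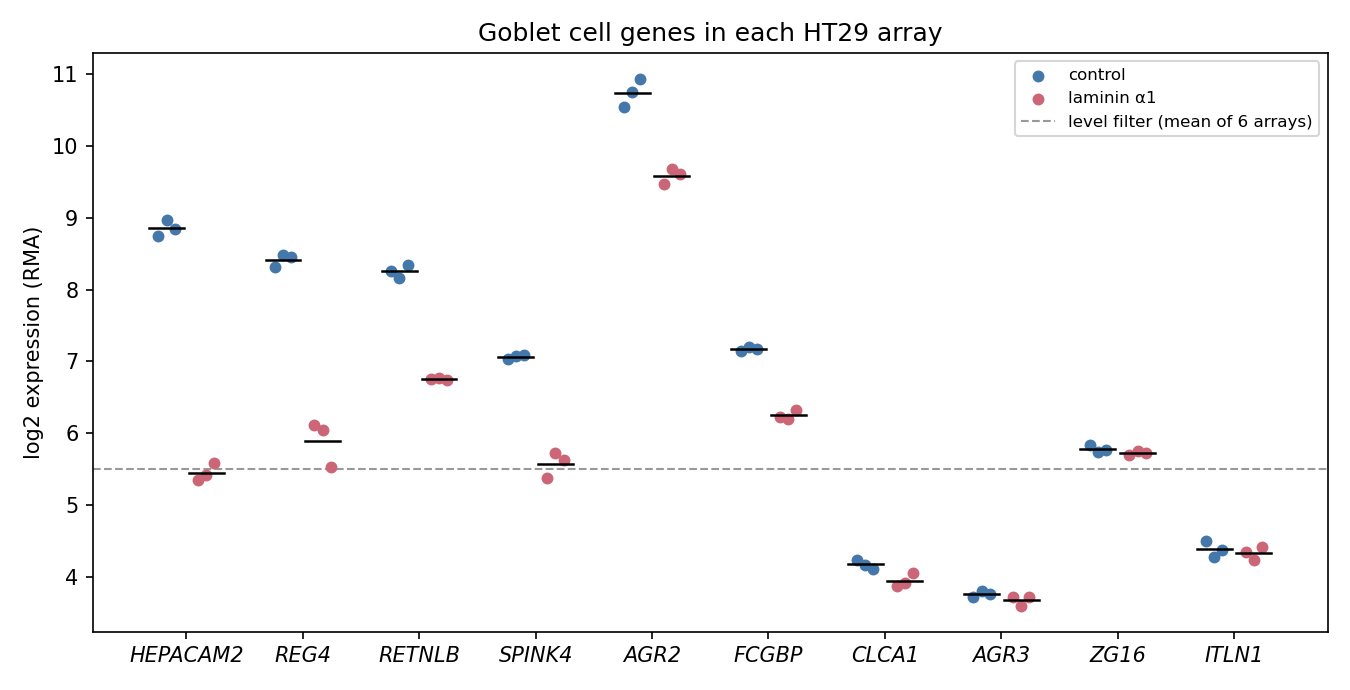
Log2 expression of the 10 goblet cell genes in each of the 6 HT29 arrays, with control arrays in blue, laminin α1 arrays in red, bars at the group means and the level filter as a dashed line. HEPACAM2 lies between 8.75 and 8.97 in the control arrays and between 5.35 and 5.59 in the laminin α1 arrays, while CLCA1, AGR3 and ITLN1 lie below the dashed line in all 6 arrays. Levels of different genes come from different probes and are not compared with each other.

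HEPACAM2, the membrane protein, had log2 values of 8.75, 8.97 and 8.85 with the control construct and 5.35, 5.42 and 5.59 with the laminin α1 construct. The highest laminin α1 array lay 3.16 below the lowest control array. The group means were 8.85 ± 0.11 and 5.45 ± 0.12 (SD, n = 3), a log2 difference of -3.40 (95% interval -3.59 to -3.21; limma adjusted p = 4.49e-08). This was the second largest fall of all genes tested. Since the laminin α1 mean lay below the level filter, where signal is low, the size is uncertain. With the filter level in place of that mean the fall would read 10.3-fold, which is not a lower bound.

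REG4, the secreted lectin, had values of 8.31, 8.48 and 8.46 with the control construct and 6.11, 6.05 and 5.53 with the laminin α1 construct. Replicate 3 of laminin α1 was the lowest and lay near the level filter, and no control array came within 2.20 of any laminin α1 array. The difference was -2.52 (95% interval -2.82 to -2.21; limma adjusted p = 4.94e-06), the third largest fall. Of the 7 tested goblet cell genes REG4 varied most within the groups, with a pooled SD of 0.234 against a median of 0.0914 over all genes tested, and 97.6% of the genes tested had a smaller one.

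RETNLB, the resistin-like peptide, had values of 8.26, 8.16 and 8.34 with the control construct and 6.76, 6.77 and 6.74 with the laminin α1 construct. The laminin α1 arrays were close together, with an SD of 0.02, and all 3 were lower than any control array. The difference was -1.50 (95% interval -1.65 to -1.34; limma adjusted p = 1.59e-06). SPINK4, the protease inhibitor, had values of 7.03, 7.08 and 7.09 with the control construct and 5.38, 5.72 and 5.63 with the laminin α1 construct. Here the control arrays were the close ones, and the groups again did not overlap. The difference of SPINK4 was -1.49 (95% interval -1.69 to -1.29; limma adjusted p = 7.50e-06), nearly that of RETNLB. The laminin α1 mean of SPINK4, 5.58, lay just above the level filter, so the size of its fall is uncertain.

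Of the lectins ZG16 and ITLN1, neither was called. ZG16 had values of 5.84, 5.74 and 5.77 with the control construct and 5.70, 5.75 and 5.72 with the laminin α1 construct, and these overlapped. Its difference was -0.06 (95% interval -0.20 to 0.08; limma adjusted p = 0.718), and its means of 5.78 and 5.72 lay just above the level filter. The second ZG16 probe set, which the choice of the brighter one left out, had a difference of -0.09 (SE 0.07; adjusted p = 0.710 over all 33297 probe sets). ITLN1 had values of 4.50, 4.28 and 4.37 with the control construct and 4.34, 4.24 and 4.41 with the laminin α1 construct. It lay below the level filter in every array and was not among the genes tested. Without the filter its difference was -0.05 (95% interval -0.22 to 0.12; limma adjusted p = 0.834).

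Of the genes for mucus proteins, FCGBP fell. Its values were 7.15, 7.20 and 7.18 with the control construct and 6.22, 6.20 and 6.33 with the laminin α1 construct. The groups were 0.82 apart, with SDs of 0.02 and 0.07. The difference was -0.92 (95% interval -1.07 to -0.78; limma adjusted p = 2.06e-05). CLCA1, the mucus protease, had values of 4.24, 4.17 and 4.11 with the control construct and 3.87, 3.92 and 4.05 with the laminin α1 construct. The laminin α1 arrays were all lower, but the whole range lay under the level filter. Without the filter the difference of CLCA1 was -0.23 (95% interval -0.38 to -0.07), which was not past the threshold of limma (adjusted p = 0.132).

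AGR2, the disulfide isomerase, was well above the filter in all arrays. Its values were 10.55, 10.75 and 10.93 with the control construct and 9.47, 9.68 and 9.61 with the laminin α1 construct. The groups did not overlap, with a gap of 0.87 between them, and the control arrays spread more widely (SD 0.19) than the laminin α1 arrays (SD 0.11). The difference was -1.16 (95% interval -1.38 to -0.93; limma adjusted p = 8.63e-05). AGR3, its paralogue and next gene on chromosome 7, had values of 3.72, 3.80 and 3.76 with the control construct and 3.72, 3.60 and 3.72 with the laminin α1 construct. AGR3 was below the level filter in all 6 arrays, and without the filter its difference was -0.08 (95% interval -0.22 to 0.07; limma adjusted p = 0.676). Groups that did not overlap, with laminin α1 lower, were found for 11.5% of all genes tested.

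**Figure D2:**
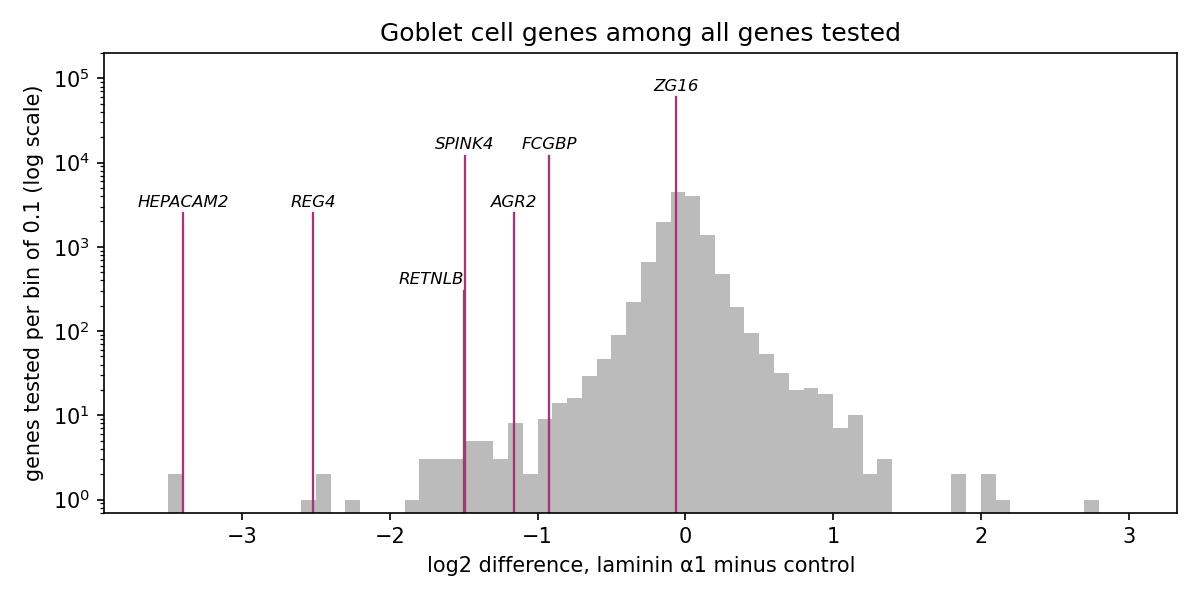
Histogram of the log2 differences (laminin α1 minus control) of all 13812 genes tested, in bins of 0.1 with a log scale of counts, and lines at the 7 tested goblet cell genes. HEPACAM2 at -3.40 and REG4 at -2.52 lie in the far lower tail, and ZG16 at -0.06 lies at the centre.

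By the size of the difference the order was HEPACAM2, REG4, RETNLB, SPINK4, AGR2, FCGBP and ZG16. The log2 ratios of the signals of neighbours in this order are given as a description, since the order itself fixes the direction of their shift, and only the change between the groups has a meaning. The log2 ratio of HEPACAM2 to REG4 was 0.44, 0.50 and 0.39 with the control construct and -0.76, -0.63 and 0.05 with the laminin α1 construct. The groups did not overlap in this ratio, although replicate 3 of laminin α1 lay closest to the control arrays. In this group HEPACAM2 was near the level filter, so the size of that shift is uncertain. The ratio of REG4 to RETNLB also did not overlap, and its mean moved from 0.16 ± 0.14 to -0.86 ± 0.30 (SD, n = 3). The ratio of RETNLB to SPINK4 was 1.19 ± 0.09 in the control and 1.18 ± 0.18 in the laminin α1 arrays, with overlapping values. SPINK4 was near the level filter in the laminin α1 arrays, so its ratios there are uncertain. The ratio of SPINK4 to AGR2 moved by -0.33 without overlap, and that of AGR2 to FCGBP by -0.23 with overlap. The ratio of FCGBP to ZG16 went from 1.39 ± 0.07 to 0.53 ± 0.07.

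Likeness to other genes was measured as the Euclidean distance over the 6 arrays between profiles centred on each gene's own mean, in log2 units. The profile of HEPACAM2 was nearest to that of SLCO1B3, an organic anion transporter, at a distance of 0.87. FMNL2, a formin, followed at 1.18, REG4 at 1.25, ATOH1 at 1.29 and MUC2 at 1.49. REG4 was nearest to ATOH1 at 0.49 and to MUC2 at 0.66, then to FMNL2 at 0.69, AUTS2 at 0.96 and OR51E1 at 0.97. SPINK4 was nearest to ENPP2, which encodes autotaxin, at 0.09. CDH17, the cadherin of intestinal epithelium, followed at 0.25, RETNLB at 0.28, and CD200 and JPH1 at 0.31. With 6 arrays in 2 groups, these distances mostly reflect the size of the difference between the groups. The laminin α1 means of SLCO1B3 (4.83), FMNL2 (5.26), AUTS2 (5.24), ENPP2 (5.10) and CDH17 (4.93) lay below the filter level, as did that of HEPACAM2. Distances that involve these genes are therefore uncertain. SLCO1B3 also varied widely within the groups, with SDs of 0.43 in the control and 0.40 in the laminin α1 arrays.

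A list of 40 other genes of the goblet cell programme was set beside the 10. It held 38 genes of the array, of which 32 passed the level filter, and 12 of these fell, 1 rose and 19 did not pass. Over all genes tested, 2.59% were called lower and 2.69% higher. The median difference of the list was -0.13, against -0.01 over all genes tested, and differences ran from -2.43 to 0.99. Several of the 12 are known from earlier results of these arrays, so this count is not independent evidence. Among the products that build the gel, MUC2, the gel-forming mucin, had values of 8.80, 8.80 and 8.79 with the control construct and 6.49, 6.68 and 6.62 with the laminin α1 construct. TFF3, a trefoil peptide secreted with mucins, went from 8.61 ± 0.08 to 7.00 ± 0.22 (SD, n = 3), 3.04-fold lower (limma adjusted p = 1.43e-05). TFF3 was lowest in replicate 3 of laminin α1, at 6.75, as were REG4 and RETNLB. In that array HEPACAM2 and FCGBP were the highest of their group, and SPINK4, AGR2 and MUC2 were lowest in replicate 1. The gel-forming mucin MUC5B differed by -0.08 and the trefoil gene TFF2 by -0.02, and neither passed.

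Of the enzymes of the secretory route, ST6GALNAC1, which adds sialic acid to mucin sugars, fell 1.69-fold from 7.08 ± 0.11 to 6.32 ± 0.08 (SD, n = 3; limma adjusted p = 0.000233). ERN2, a stress sensor of the endoplasmic reticulum in mucus-secreting epithelium, fell 1.58-fold from 8.10 ± 0.12 to 7.44 ± 0.10 (limma adjusted p = 0.00104). XBP1, a factor of the secretory stress response, differed by -0.09 (95% interval -0.25 to 0.06) and did not pass. SYTL2, a synaptotagmin-like protein of vesicle transport, fell 1.77-fold and BCAS1 1.39-fold. Among the transcription factors, ATOH1 went from 9.56 ± 0.17 to 7.13 ± 0.12, and FOXA2, a forkhead factor, fell 1.46-fold. SPDEF, a factor of goblet cell maturation, was 8.50 ± 0.09 in the control and 8.43 ± 0.09 in the laminin α1 arrays (SD, n = 3; difference -0.07, 95% interval -0.24 to 0.10). CREB3L1, at -0.08, and FOXA1, at -0.05, did not pass either. WFDC2, a secreted protein with a protease inhibitor fold, was the 1 gene of the list that rose, from 7.63, 7.51 and 7.56 in the control arrays to 8.65, 8.62 and 8.39 in the laminin α1 arrays, or 1.99-fold (limma adjusted p = 6.38e-05). The calls of TFF1, FOXA2, GUCA2A and RAP1GAP were lost without control replicate 1, and the list then held 9 calls, 8 lower and 1 higher. That of TFF1 was also lost without control replicate 3, those of FOXA2 and GUCA2A without control replicate 2, and that of RAP1GAP without control replicate 2, control replicate 3 or laminin α1 replicate 2. These 4 calls were lost as well when all probe sets were tested separately.

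**Figure D3:**
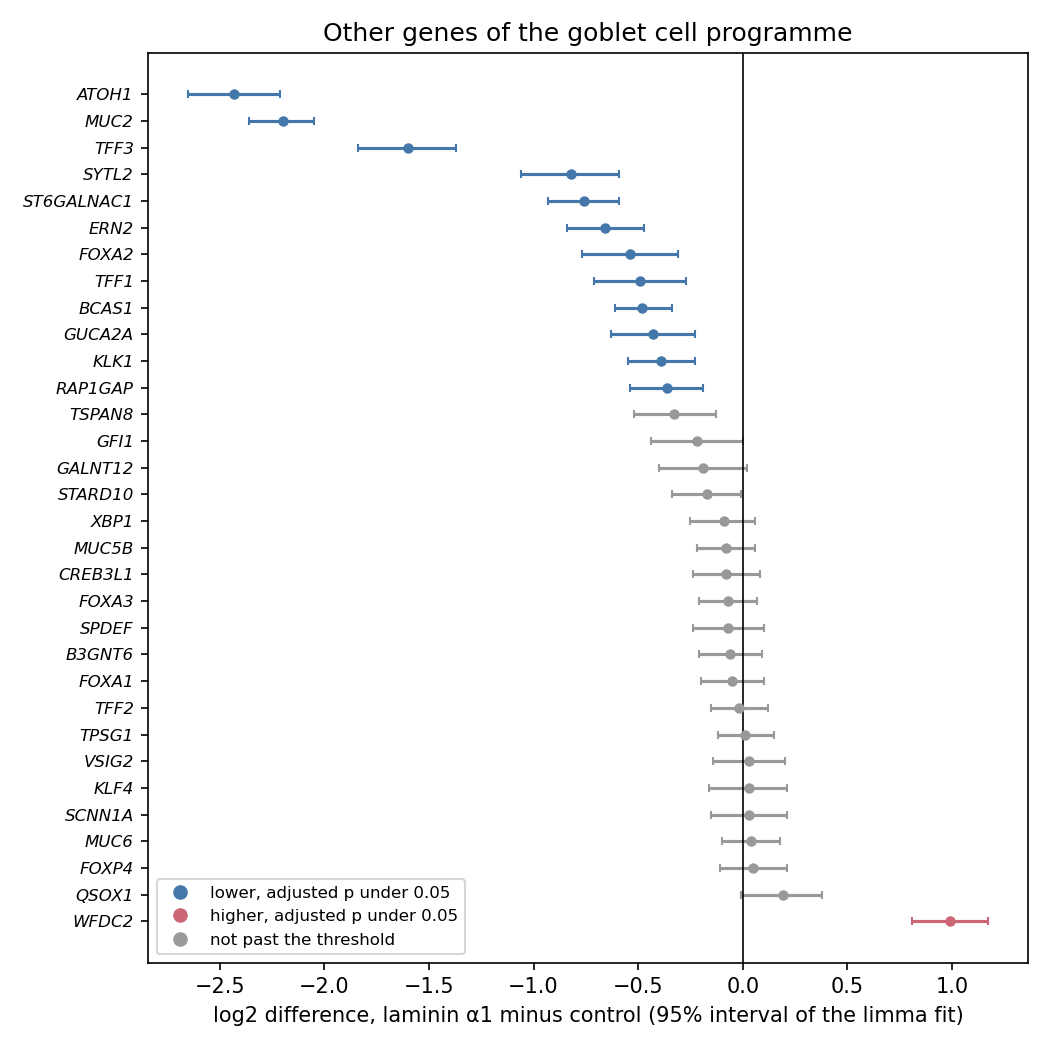
Log2 difference with its 95% interval (laminin α1 minus control, limma fit) for the 32 tested genes of the goblet cell programme list, with genes called lower in blue, higher in red and the rest in grey. ATOH1, MUC2 and TFF3 stand apart at the top, from -2.43 to -1.60, and WFDC2 at 0.99 stands apart at the bottom.

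Relatives of the 10 genes were looked at in the same way, from a list of 20 genes that share a family or a domain with them. Of 19 on the array, 14 lay below the level filter, among them REG1A, REG1B, REG3A and REG3G, lectins of the REG family, as well as HEPACAM, CLCA2, CLCA4 and ITLN2. Of the 5 tested, 1 fell and 4 did not pass, with a median difference of -0.09, where 2.59% of all genes tested were called lower. The 1 was SPINK1, a trypsin inhibitor, with values of 9.32, 9.40 and 9.59 with the control construct and 9.10, 9.07 and 8.86 with the laminin α1 construct. Its groups were 0.21 apart, and it fell 1.34-fold (limma adjusted p = 0.0249). The call of SPINK1 was lost without control replicate 2 (adjusted p = 0.0830), control replicate 3 (0.0832) or laminin α1 replicate 2 (0.0691). RETN, the relative of RETNLB, differed by -0.01 (95% interval -0.17 to 0.14), ZG16B by 0.08 (-0.08 to 0.24) and TXNDC12, the relative of AGR2, by -0.09 (-0.24 to 0.05). ZAN, which shares a domain with FCGBP, differed by -0.14 (-0.34 to 0.06). None of these 4 passed.

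**Figure D4:**
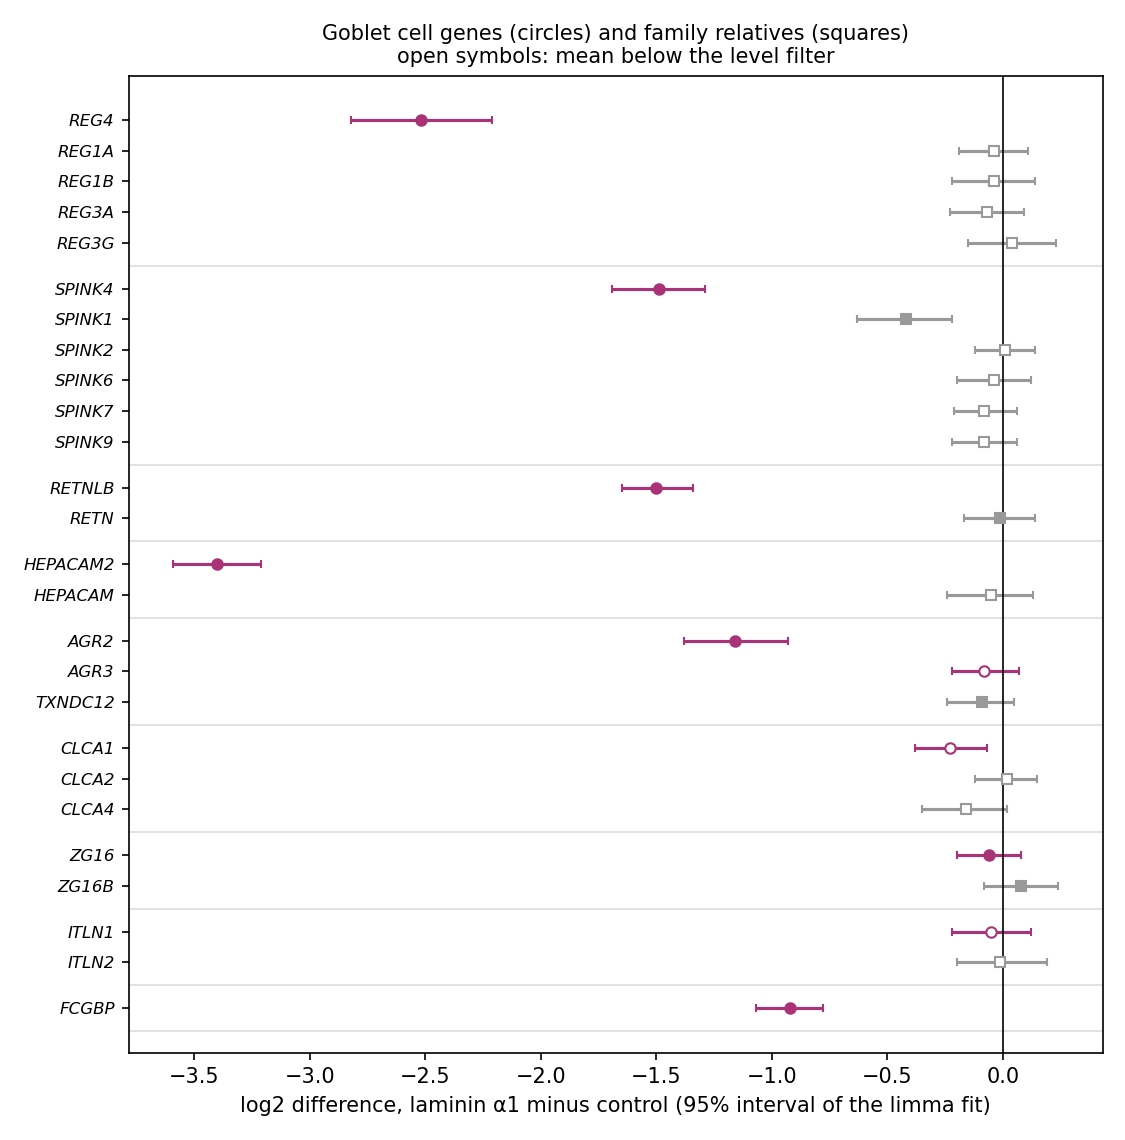
Log2 difference with its 95% interval (laminin α1 minus control, limma fit) for the 10 goblet cell genes (circles) and relatives of their families (squares), where open symbols are genes whose mean lay below the level filter, fitted without it. The 6 lower goblet cell genes lie between -3.40 and -0.92, and among the relatives only the interval of SPINK1, from -0.63 to -0.22, leaves out 0.

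Markers of other intestinal cell types were measured beside the goblet cell genes. Over all genes tested, 2.59% were called lower and 2.69% higher. Of 13 enteroendocrine markers on the array, 8 were tested, 2 fell and 0 rose. These were NEUROG3 and PAX4, transcription factors of the endocrine lineage, at 2.34-fold and 1.60-fold lower, while CHGA, GCG and TPH1 were below the level filter in both groups. The 6 others tested, INSM1, SYP, CHGB, PYY, SST and CCK, differed by -0.17 to -0.01 and did not pass. The mean log2 level of that list ran from 5.65 to 5.67 in the control arrays and from 5.44 to 5.50 in the laminin α1 arrays. NEUROG3 and PAX4 made up most of that shift. REG4 is also made by enteroendocrine cells, and the part of that lineage in its fall was not tested. Of 5 Paneth cell markers 2 were tested and 0 passed the threshold, with list levels of 6.77 to 6.80 and 6.73 to 6.83. LYZ had a high signal, with means of 13.15 in the control and 13.20 in the laminin α1 arrays. PLA2G2A had means of 6.08 and 6.12, while the defensins DEFA5 and DEFA6 and the lectin ITLN2 were below the filter. Of 8 tuft cell markers 6 were tested and 1 rose, PTGS1, the constitutive cyclooxygenase, 2.20-fold, and list levels went from between 6.08 and 6.13 to between 6.25 and 6.28. Of 11 enterocyte markers 8 were tested and 2 fell, KRT20 by 1.28-fold and GUCA2A by 1.35-fold, a gene that the goblet cell list also holds, with list levels of 6.40 to 6.43 and 6.29 to 6.31. The call of KRT20 was lost without control replicate 2 or laminin α1 replicate 2 (adjusted p = 0.0628 and 0.0599). The part of these lineages in the result was not tested.

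The chromosomal neighbours of the lower goblet cell genes were also measured. In the RefSeq gene order, the 5 array genes on each side of the 6 lower genes came to 59 genes without AGR3, of which 40 passed the level filter. Of these, 1 fell, 1 rose and 38 did not pass, where 5.29% of all genes tested were called in either direction. Their differences ran from -0.50 to 0.49. The 1 that fell was HHLA2, an immunoglobulin-family ligand of T cells 4 places from RETNLB, by 1.41-fold (limma adjusted p = 0.00356). The 1 that rose was HSD3B1, a steroid dehydrogenase 4 places from REG4, by log2 0.49 (limma adjusted p = 0.00249). Beside HEPACAM2, which fell by 3.40 on the log2 scale, the interferon-induced genes SAMD9L and SAMD9 on one side differed by 0.38 (SE 0.12; limma adjusted p = 0.125) and 0.29 (SE 0.15; limma adjusted p = 0.378), and VPS50, a vesicle transport gene on the other side, by -0.25 (SE 0.11; limma adjusted p = 0.285). With the replicate number as a block, SAMD9 and VPS50 passed (adjusted p = 0.0221 and 0.0385), and SAMD9L passed without laminin α1 replicate 2 (adjusted p = 0.0189). These windows were chosen after the data had been examined.

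**Figure D5:**
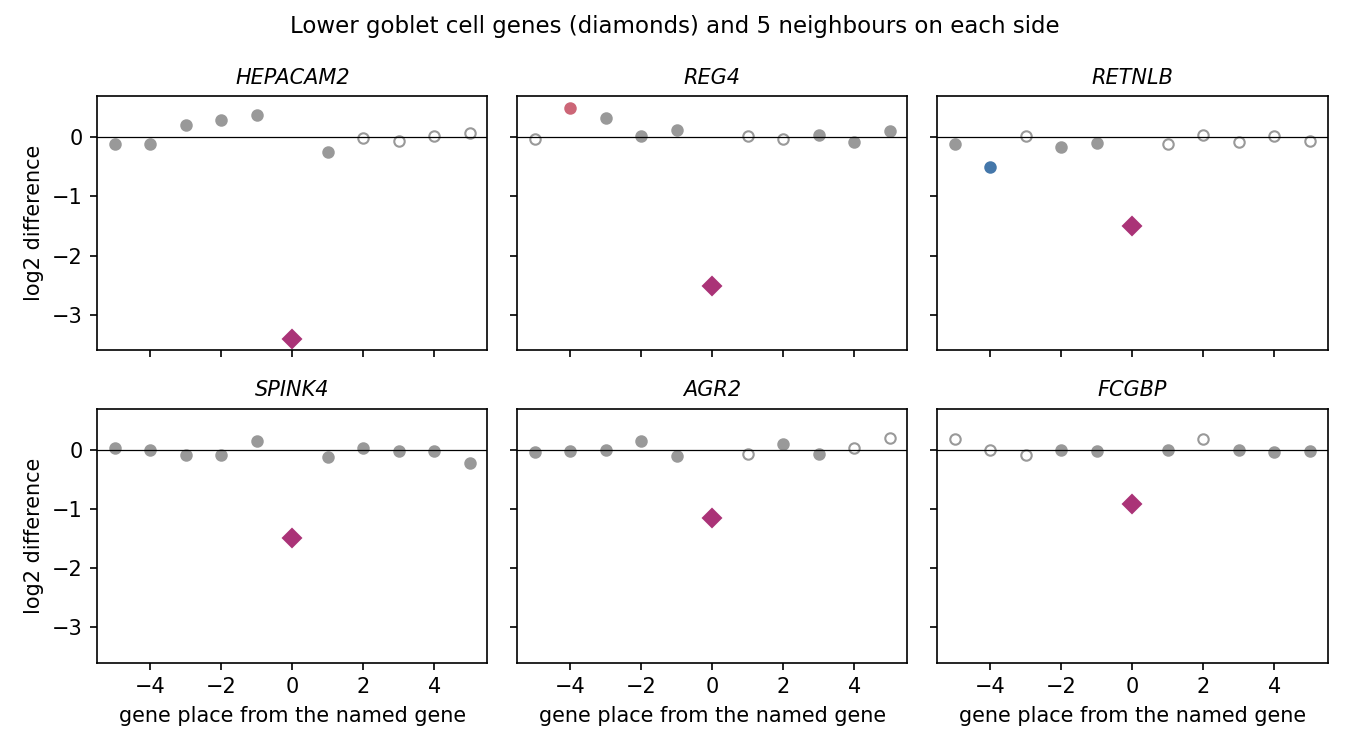
Log2 difference (laminin α1 minus control) of the 6 lower goblet cell genes (diamonds at place 0) and of the 5 array genes on each side of them in gene order, with genes called lower in blue, called higher in red, not past the threshold in grey and below the level filter as open circles. Tested neighbours other than goblet cell genes lie between -0.50 and 0.49, and the diamonds between -3.40 and -0.92.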

How the data were processed

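RNA of HT29 cells was measured on 6 arrays, 3 per group. Each deposited value is the log2 expression of 1 probe set. The submitters' processing notes name Affymetrix Expression Console 1.1 and RMA, which removes background, brings the arrays to one distribution and summarises probes, so a common shift of every gene would be lost. Values were used as deposited, from 33297 probe sets. The number of arrays limits the precision. Genes were named from the platform annotation (19460 probe sets with 1 symbol, 1754 with several, 12083 not listed). Laminin α1 minus control was fitted over 13812 genes with limma 3.58.1 (lmFit, eBayes; R 4.3.3) and no covariates, with Benjamini-Hochberg adjustment over all of them. The fit was tested on simulated data with independent noise in each array. Deviations that arrays share, given below, were not simulated. An exact permutation test of 3 against 3 arrays cannot go below p = 0.1 and was not used. The genes and lists were chosen with earlier results of these data known. The genes named were the 10 goblet cell genes, LAMA1, up to 6 goblet list genes and up to 4 relatives with the smallest p, and the 5 genes nearest in profile to HEPACAM2, REG4 and SPINK4. Other names were chosen after their values were seen. Alternatives were other level filters, all probe sets, the mean of probe sets, median centring, a trended robust eBayes, weights per array, a block for the replicate number and leaving out each array. Promoters came from RefSeq for GRCh38.p14. That assembly's gene order gave neighbours.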

Additional observations from a re-analysis of the deposited data

How the results depend on the processing

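The falls of HEPACAM2, REG4, RETNLB, SPINK4, AGR2 and FCGBP kept their direction and their call under each alternative in which the gene was tested. The difference of HEPACAM2 ran from -3.53 to -3.34, that of REG4 from -2.62 to -2.33 and that of FCGBP from -0.98 to -0.90. The count of 6 stayed at 6, except with the filter at the 50th percentile, which tested 4 of the 10 genes and called all 4. ZG16 did not pass in any alternative that tested it (adjusted p from 0.579 to 0.905). Over all genes tested, 730 passed (5.29%). With the probe sets tested separately 442 of the genes passed, with array weights, whose iterations stopped before they converged, 4691, and with the replicate block 1596. With 1 array left out the count ran from 407 (control replicate 2 left out) to 1214 (laminin α1 replicate 3 left out), and was 429 with laminin α1 replicate 2 left out. Among the 5 tested relatives 1 passed, 0 with all probe sets and 2 with array weights, and 0 to 1 with 1 array left out. The goblet cell list had between 9 and 18 calls over its alternatives, against 13. Same-numbered arrays of the groups deviated together at correlations of 0.39, 0.02 and 0.53. Control replicates 1 and 3 each correlated best with the laminin α1 array of their own number. Control replicate 1 with laminin α1 replicate 3 gave -0.49, and control replicate 3 with laminin α1 replicate 1 gave -0.44. Control replicate 2 correlated best with laminin α1 replicate 1 (0.14). Whether the arrays are paired by number was not settled, and the main fit used no block. Of the genes followed singly, SAMD9 (adjusted p = 0.0221) and VPS50 (adjusted p = 0.0385) passed with the replicate block and not in the main fit. The block changed no call of the others followed singly. The goblet cell list as a whole had 14 calls with the block, 13 lower and 1 higher. SAMD9L passed without laminin α1 replicate 2 (adjusted p = 0.0189), and VPS50 (0.0287) and ZG16B (0.0154) with array weights. Signs turned, with no call, for TFF2 with control replicate 1 left out (0.00263, in a range from -0.04), for RETN with array weights (0.09), and for RETN with control replicate 3 (0.000706) or laminin α1 replicate 1 (0.04) left out, in a range from -0.06.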
